A study of Xenopus tropicalis with 12 samples.

Results

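The genes of the extracellular matrix and of its receptors examined here are the collagen, laminin, nidogen, fibrillin, fibulin and integrin genes of Xenopus tropicalis, together with fibronectin (fn1), perlecan (hspg2), tenascin-C (tnc) and dystroglycan (dag1). They were taken by symbol from the gene names attached to the peaks of a ChIP-Seq study of thyroid hormone receptor (TR) in tadpole intestine. The rule found 81 of the 19768 genes named there. These carry 80 distinct symbols, because col5a3 stands on 2 gene IDs. The rule matched 4 of the 81 (col4a3bp, col4a2-as2, itgb1bp2 and itgb3bp) by the start of their name, although they encode no collagen or integrin chain.

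Intestines came from TRα-/- and wild-type tadpoles at the premetamorphic stage 54. Each genotype was either kept for 18 h in 10 nM T3, the active thyroid hormone, or left without T3 as control. The TR antibody used for ChIP recognises both TRα and TRβ, so that in the TRα-/- intestine, a homozygous knockout, TRβ is the receptor that remains. Each of the 4 conditions is 1 ChIP DNA sample pooled from several tadpoles and sequenced as 3 technical replicates, 12 libraries in all. The spread between libraries is therefore technical, and differences between animals or between separate ChIP samples were not measured.

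The values are peaks, that is, places with more fragments than the surrounding chromatin, which were called for every library separately and with no input at q-values below 0.05. A peak at a gene can thus not be told apart from open or otherwise enriched chromatin by these lists alone. Each library listed between 17414 and 63333 peaks, with the fewest in the TRα-/- T3 libraries (17414 to 30916). The lists carry no read totals, so sequencing depth is not known directly. The lowest background implied by the height and fold enrichment of the peaks is a rough guide to it. This was 0.149 to 0.297 in TRα-/- with T3 and 0.118 to 0.260 without T3. In wild type it was 0.251 to 0.664 with T3 and 0.0898 to 0.426 without T3. At each replicate number it was highest in wild type with T3. What depth adds to differences between conditions was not tested. A region is the joined stretch of overlapping peaks from all 3 libraries of a condition, and a gene was called TR-bound when a region lay in its extent or within 5 kb of either end. Over the 4 conditions there were 15152 such regions, of which 62 lay at 26 of the matrix and integrin genes.

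The basement membrane is the sheet of laminin, collagen IV, nidogen and perlecan on which the intestinal epithelium rests, and the fibrillar collagens form the connective tissue below it. Integrins are pairs of an α and a β chain that span the cell membrane and bind these proteins outside the cell. During metamorphosis the larval epithelium of the frog intestine dies, adult stem cells arise, and the basement membrane becomes thick and folded. TR sits at thyroid hormone response elements in chromatin together with the retinoid X receptor, with or without hormone.

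Of the 81 genes, 16 were TR-bound in the TRα-/- intestine with T3, 19 in the TRα-/- intestine without T3, 25 in the wild-type intestine with T3 and 17 in the wild-type intestine without T3. Over all genes named in the lists the shares bound in these conditions were 11.5%, 13.5%, 21.2% and 16%, so the matrix and integrin genes, at 19.8%, 23.5%, 30.9% and 20.99%, lay above all 4. They are long genes, since their extents had a median of 63580 bp and those of the other genes one of 12617 bp, and a long gene has more room for a region. Other genes of similar extent were bound in 17.2%, 20.5%, 30.03% and 24.4%, which is 13.9, 16.6, 24.3 and 19.7 genes for a set of 81. Set beside genes of their own length, the observed counts were thus 2 to 3 genes higher in TRα-/-, near equal in wild type with T3 and lower in wild type without T3. In at least 1 condition 26 genes (32.1%) were bound, against 24.2% of all genes and 33.9% of genes of similar extent. In all 4 conditions 13 genes (16.05%) were bound, against 8.52% of all genes and 13.8% at similar extent. Without the 4 genes matched by name alone, the counts were 14, 18, 23 and 15 of 77. For these 77, similar extent would give 13.5, 16.01, 23.4 and 19.1 genes. The count in TRα-/- with T3 was then near equal to that of genes of similar extent. The count in TRα-/- without T3 was still higher, wild type with T3 near equal and wild type without T3 lower. Of the 71 genes whose extent came from a full gene feature, 12, 17, 20 and 12 were bound. Of all genes with such a feature, 13.2%, 15.3%, 23.6% and 17.9% were bound, not matched for extent. The share of the 71 lay below this in wild type without T3 and above it in the other conditions.

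**Figure D1:**
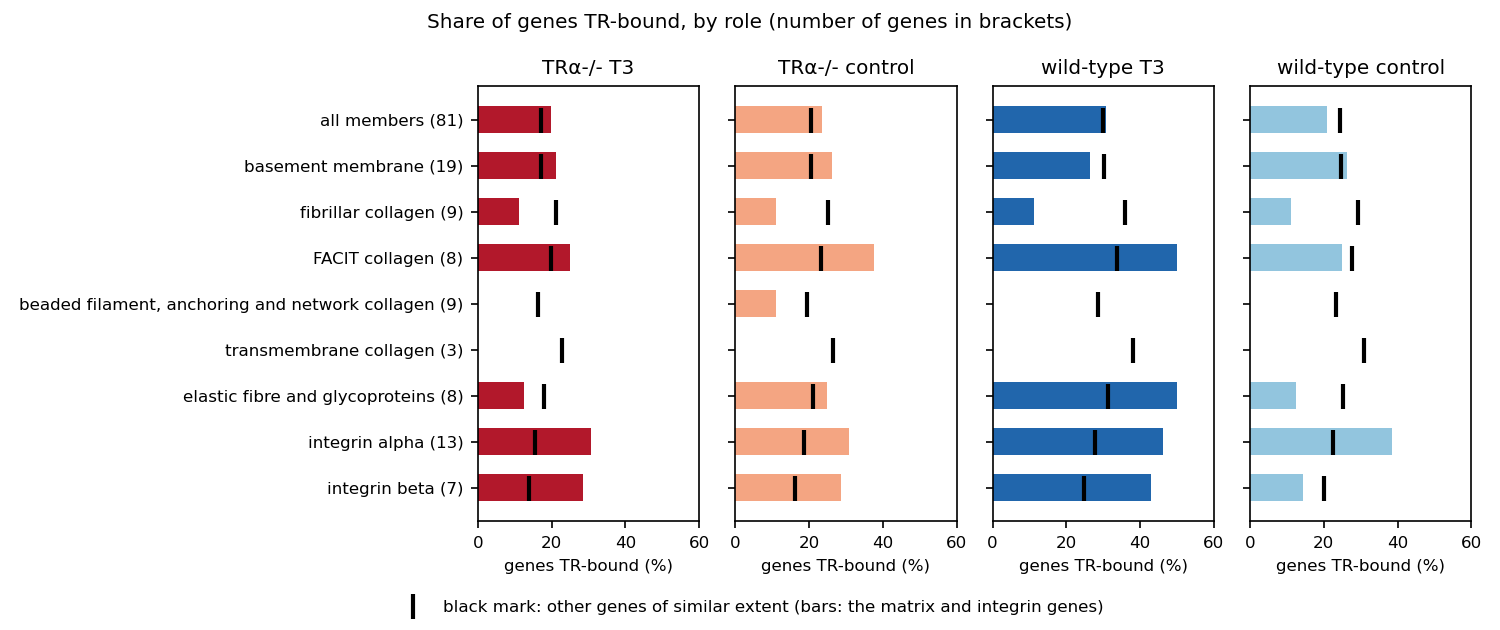
Share of genes called TR-bound (horizontal axis, percent of the genes of a group) in each of the 4 conditions, for all 81 genes and for 8 groups by role, with the number of genes in brackets. Bars are the matrix and integrin genes and black marks are other genes of similar extent, such as 30.9% and 30.03% for all 81 genes in wild type with T3.

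These counts depended on how strict a peak had to be. With only peaks at a −log10 q of at least 5, the bound genes numbered 8, 11, 15 and 11 in the same order of conditions, and over all genes 5.91%, 6.005%, 12.9% and 7.63% were bound. For the wild-type intestine without T3 the count was 29 when a peak in at least 2 of its 3 libraries was enough (29.9% of all genes), and 27 when replicate 1 of every condition was left out (25.3% of all genes). When joined peaks had to share 50% of their widths, 10 genes were left in the TRα-/- intestine with T3 (7.96% of all genes). The share over all genes thus moved in the same direction as the count each time.

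Most bound genes were shared between the genotypes. Of the 25 genes bound in wild type with or without T3, 20 (80%) were also bound in TRα-/- intestine, beside 62.9% for all genes. Only col26a1 was bound in TRα-/- alone, and col14a1, fbln5, fbn2, itga2 and itga8 were bound in wild type alone. Most of these calls depended on the need for a peak in all 3 libraries. When 2 of 3 libraries were enough, col26a1 and col14a1 were bound in all 4 conditions. Then fbn2, itga2 and itga8 were bound in 3 conditions each, so in both genotypes, and fbln5 in 1. In TRα-/- intestine 2 genes were bound with T3 alone, 5 without T3 alone and 14 in both. In wild-type intestine 8 genes were bound with T3 alone, 0 without T3 alone and 17 in both. Over all genes, 2.11% were bound with T3 alone and 4.098% without T3 alone in TRα-/-, and 7.13% with T3 alone and 1.89% without T3 alone in wild type. These shares over all genes, the 62.9% included, were not matched for extent, and the other genes are mostly shorter. Whether genes of similar extent differ from the matrix and integrin genes in this was not tested.

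The 13 genes bound in all 4 conditions were lama5, lamb2, hspg2 and col18a1 of the basement membrane, the fibrillar collagen gene col5a3, col19a1 and col22a1 of the collagens that attach to fibrils, fbln7, the integrin α genes itga1, itga10, itga2b.2 and itga7, and col4a2-as2, a transcript matched by name. At a −log10 q of at least 5, 8 of them were still bound in all 4 conditions, namely lama5, hspg2, col18a1, col19a1, col22a1, itga10, itga2b.2 and col4a2-as2. The other 13 bound genes were bound in 1 to 3 conditions and are given below by group.

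**Figure D2:**
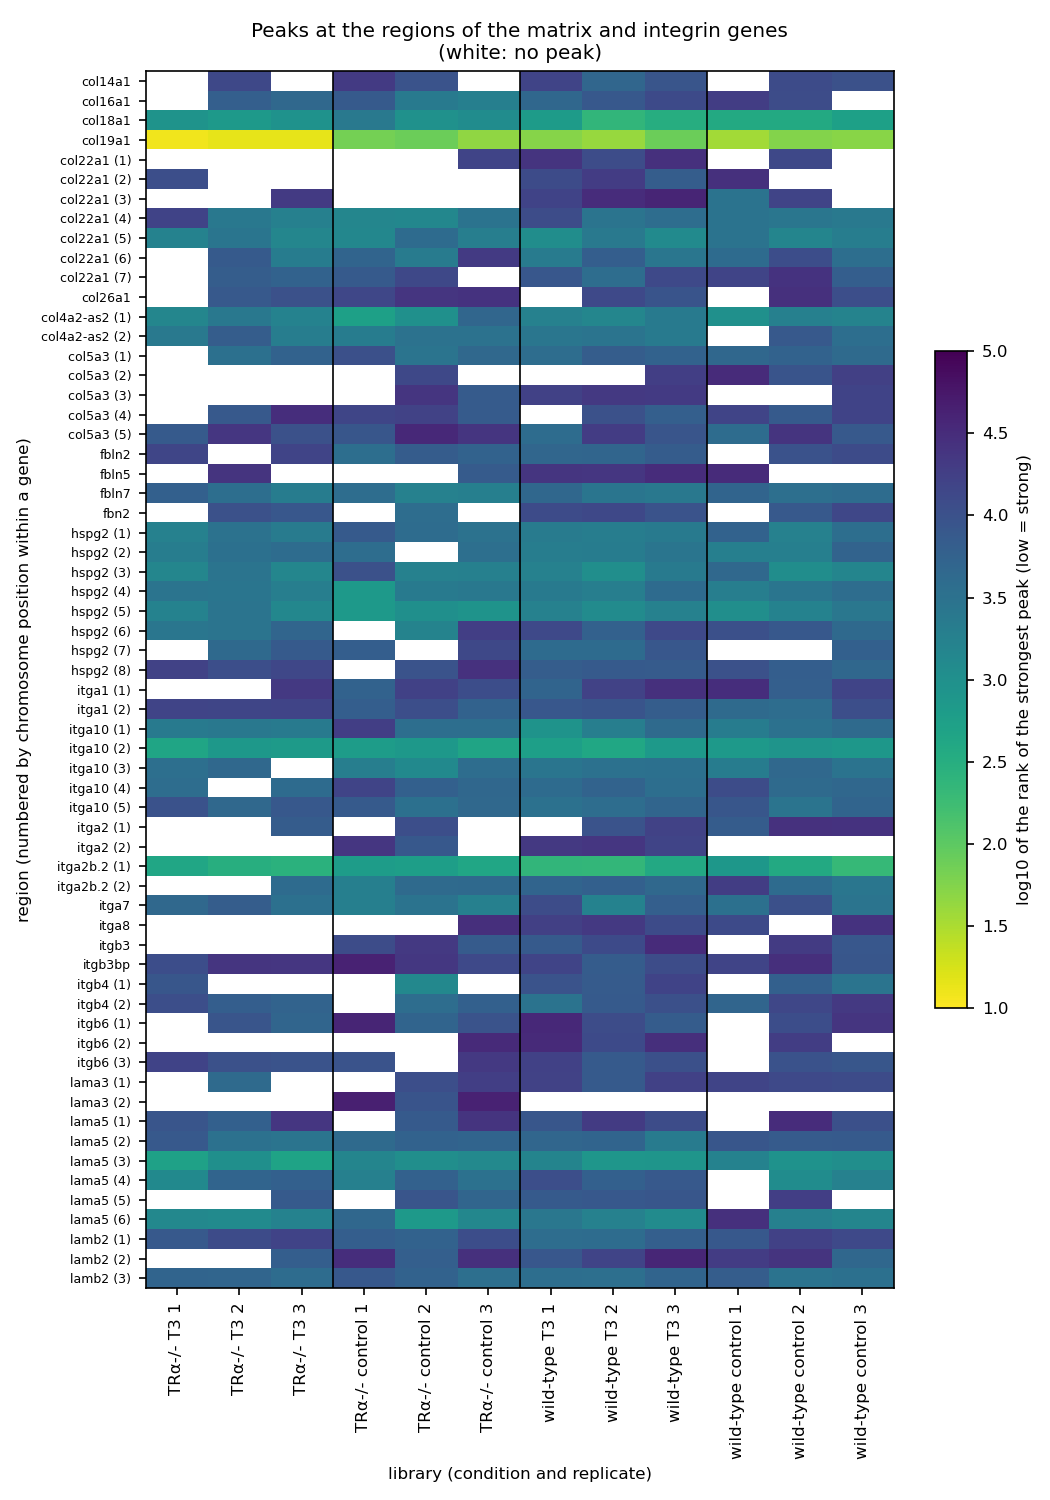
Rank of the strongest peak at each of the 62 regions (one line per region, numbered by chromosome position within a gene) in each of the 12 libraries, as colour on a log10 scale where yellow is strongest and white means no peak. The region of col19a1 is the brightest line, with ranks of 12 to 79 in all 12 libraries. The 3 TRα-/- T3 libraries on the left had a peak at 36, 44 and 48 of the regions (58.1%, 71.0% and 77.4%). Over all regions they had one at 53.8%, 64.9% and 71.8%.

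Region strength was compared as the rank of its strongest peak within each library's own list, by −log10 p, with 1 the strongest, since pileups are not scaled to depth. The lists differ in length, with 17414 to 30916 peaks in the TRα-/- T3 libraries and 38961 to 44196 in the TRα-/- control libraries. The same rank is therefore a larger share of a shorter list. Fold enrichments, where given, rest on the same fragments as the ranks and are no separate check of them. The 62 regions had a median width of 759.5 bp, against 825 bp for all regions. They lay inside the gene in 50 cases (80.6%), upstream in 8 and downstream in 4. Of all regions within 5 kb of a gene, 72.2% overlapped a gene extent, a share not matched for gene length. Within 1 kb of a gene's start lay 2 of the 62, a count not taken over all regions. A peak was present in all 12 libraries at 23 regions (37.1%), against 26.0% of all regions. As 31 of the 62 regions belong to 5 genes, these shares do not come from 62 independent genes. A median rank of at most 1000 was reached by 4 regions (6.45%), close to the 5.68% of all regions.

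In the basement membrane group, 5 of 19 genes were bound in at least 1 condition (26.3%, against 33.9% of genes of similar extent), with 4, 5, 5 and 5 genes in the TRα-/- T3, TRα-/- control, wild-type T3 and wild-type control intestine. At similar extent 3.26, 3.92, 5.71 and 4.67 genes would be bound. The bound genes were those of laminin chains α3, α5 and β2, perlecan and collagen XVIII. None of the collagen IV genes named in the lists (col4a1, col4a2, col4a5 and col4a6) was bound in any condition, although they had a peak in 10, 11, 11 and 12 of the 12 libraries. No full gene feature was listed for any of these, so their extents may be short. When a peak in at least 2 of 3 libraries was enough, col4a1, col4a2, col4a6, lamb4 and nid1 were bound. Each was also bound with 1 of the replicates left out (col4a1, lamb4 and nid1 without replicate 2, col4a2 without replicate 3, col4a6 without replicate 1 or 3). The nidogen genes nid1 and nid2, whose products link laminin to collagen IV, were not bound either, nor was lamc1, which encodes a laminin γ chain.

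The gene for perlecan, a large heparan sulphate proteoglycan of basement membranes, held 8 regions on chromosome 7, more than any other of the 81 genes. One of them, at 116117801 to 116118327 and 48.4 kb from the start of the gene, had ranks of 1674, 2901 and 1421 in TRα-/- with T3, 719, 1006 and 878 in TRα-/- without T3, 1773, 1157 and 1748 in wild type with T3 and 1074, 1696 and 2553 in wild type without T3. The 3 TRα-/- control libraries ranked it better than the TRα-/- T3 and the wild-type control libraries, without overlap. A second region, 2780 bp upstream of hspg2 at 116066084 to 116066840, ranked 1747, 3084 and 2173 in TRα-/- with T3 and 7360, 3909 and 3139 in TRα-/- without T3, the opposite order. These regions of 1 gene were thus ranked in opposite orders by the TRα-/- groups. As shares of each list, however, the ranks of the upstream region in the TRα-/- groups overlapped. The region at 116106465 to 116106977 had ranks of 1479, 2902 and 1449 in TRα-/- with T3, 10329, 1750 and 1841 in TRα-/- without T3, 1769, 1054 and 2292 in wild type with T3 and 4409, 1094 and 1522 in wild type without T3, so all groups overlapped. The region at 116081846 to 116082422 touched an exon listed for hspg2, and the last one, downstream at 116149980 to 116150693, also lay within 5 kb of ldlrad2.

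**Figure D3:**
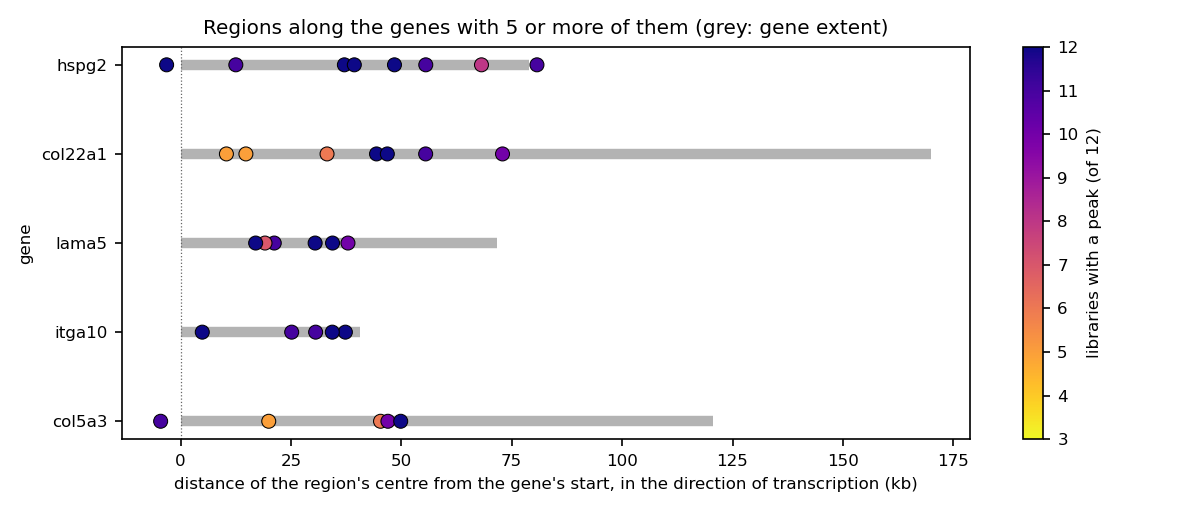
Position of the regions along the 5 genes that held 5 or more (distance of each region's centre from the start of the gene in kb, in the direction of transcription), coloured by the number of libraries with a peak, with the extent of the gene in grey. hspg2 has 8 regions from 3.16 kb upstream of its start to 80.7 kb after it, while those of col22a1 lie between 6.11% and 42.9% of its extent.

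Laminin α5, the α chain of the main laminin under mature epithelia, is encoded on chromosome 10 by lama5, which held 6 regions, all inside the gene between 17.01 and 37.9 kb from its start. The strongest, at 1358400 to 1359324, had ranks of 513, 1010 and 471 in TRα-/- with T3, 1493, 1067 and 1319 in TRα-/- without T3, 1564, 783 and 817 in wild type with T3 and 1665, 919 and 1048 in wild type without T3. In TRα-/- intestine every T3 library ranked it better than every control library, with fold enrichments of 13.9, 10.3 and 15.2 with T3 and 8.81, 11.7 and 11.5 without, which overlap. Taken as shares of each list, these TRα-/- ranks overlapped too. In wild type the ranks with and without T3 overlapped. At 1354554 to 1355291, ranks of 4817, 5165 and 2206 in wild type with T3 stood against 8465, 7206 and 7287 in wild type without T3. As shares of each list, these wild-type ranks overlapped. The region at 1372018 to 1372648 ranked between 692 and 4655 in 11 libraries and at 27532 in replicate 1 of the wild-type control.

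The laminin β2 gene lamb2 held 3 regions on chromosome 4, one of them among the 2 near a gene start. That region, at 127027451 to 127030234, ranked 5206, 4941 and 3806 in TRα-/- with T3, 7841, 5615 and 3483 in TRα-/- without T3, 3609, 3464 and 5145 in wild type with T3 and 6545, 2971 and 3374 in wild type without T3. All 4 groups overlapped in rank. As shares of each list, the TRα-/- T3 ranks stood further down than those of wild type with T3, without overlap. The start of lamb2 is uncertain, since no full gene feature was listed for it. Collagen XVIII, a basement membrane collagen whose end fragment is endostatin, is encoded by col18a1 on chromosome 9, with 1 region at 56490310 to 56491701. It ranked 884, 687 and 927 in TRα-/- with T3, 2456, 962 and 1123 in TRα-/- without T3, 627, 234 and 317 in wild type with T3 and 367, 367 and 540 in wild type without T3. Here each TRα-/- library lay below each wild-type library of the same treatment, and in TRα-/- each T3 library lay above each control library. Fold enrichment at this region was 11.5, 14.9 and 14.8 in TRα-/- with T3, 7.12, 14 and 13 in TRα-/- without T3, 18.1, 29.8 and 27.2 in wild type with T3 and 16.7, 22.2 and 22.1 in wild type without T3. By this measure, which rests on the same fragments, the TRα-/- libraries also stayed below the wild-type libraries of the same treatment. The fold enrichments in TRα-/- with and without T3 overlapped, however. As shares of each library's list, the TRα-/- ranks were 5.08%, 2.64% and 3.00% with T3 and 5.56%, 2.47% and 2.64% without, which overlapped too.

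The laminin α3 gene lama3, whose product is part of the laminin that anchors epithelia at hemidesmosomes, had the one region, of all 62, that was found in every TRα-/- control library and in no library of the other conditions. At 94241667 to 94242134 on chromosome 6 the ranks there were 43933, 9008 and 42051, with pileups of 2, 7 and 3 fragments. Replicates 1 and 3 had lists of 44196 and 42458 peaks, so that these peaks stood at their weak end, while the peak of replicate 2 stood in the stronger part of 38961. These are small numbers of fragments, and the region was lost at a −log10 q of at least 5. The other region of lama3, 2914 bp upstream of the gene, was found in every wild-type library, with ranks of 16294, 7424 and 16553 with T3 and 14999, 13165 and 12403 without. It also had a peak in 1 TRα-/- T3 library and 2 TRα-/- control libraries. Its best rank, 4206, was in one of these TRα-/- libraries.

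Among the fibrillar collagen genes, which encode the collagens of connective tissue fibres, 1 of 9 was bound (11.1%, against 40.4% of genes of similar extent in at least 1 condition). The bound one was col5a3 on chromosome 3, which encodes a chain of collagen V, with 5 regions. Its region at 126448592 to 126450030 had a peak in all 12 libraries, with ranks from 3873 to 34392. A second gene ID with the symbol col5a3, on chromosome 4, was not bound. col1a1 and col3a1, for chains of the abundant collagens I and III, had a peak in 5 and 7 of 12 libraries and a region in none of the conditions. When a peak in at least 2 of 3 libraries was enough, col24a1 and col5a2 of this group were bound too. Both were also bound without replicate 1.

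The FACIT collagens sit on the surface of fibrils or near basement membranes. Of their 8 genes 4 were bound (50%, against 38.0% at similar extent), with 2, 3, 4 and 2 genes in TRα-/- T3, TRα-/- control, wild-type T3 and wild-type control intestine. Similar extent would give 1.58, 1.87, 2.70 and 2.21 genes. The strongest region of all 81 genes lay in col19a1, the gene of collagen XIX, at 90893584 to 90894230 on chromosome 5. This is 263 kb from the start, at 74.9% of the extent of col19a1. Its ranks were 12, 14 and 14 in TRα-/- with T3, 69, 78 and 46 in TRα-/- without T3, 54, 42 and 79 in wild type with T3 and 36, 56 and 51 in wild type without T3. Each of the 12 libraries thus placed it among its 100 strongest peaks, and the 3 TRα-/- T3 libraries ranked it above all 9 others.

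The fold enrichment of this col19a1 region was 45.9, 38.9 and 43.7 in TRα-/- with T3, 27.5, 29.7 and 34.3 in TRα-/- without T3, 39.1, 37.4 and 34.6 in wild type with T3 and 40.1, 35.6 and 34.2 in wild type without T3. On this scale the TRα-/- T3 libraries also lay above the TRα-/- control libraries, but they overlapped both wild-type groups, since the value of 38.9 falls below 39.1 and 40.1. The TRα-/- T3 lists were the shortest, and ranks in them run over fewer peaks; what this contributes to the difference was not tested. The region is a single one, and no other of the 62 had a median rank of at most 100, which 86 of all regions reached.

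The gene of collagen XXII, found at tissue junctions such as that of muscle and tendon, held 7 regions on chromosome 6. The strongest in col22a1, at 124402305 to 124403691, ranked 1705, 2778 and 1451 in TRα-/- with T3, 1396, 4028 and 1923 in TRα-/- without T3, 1083, 2404 and 1238 in wild type with T3 and 2996, 1509 and 2029 in wild type without T3, so all groups overlapped. At 124366263 to 124366849 no TRα-/- T3 library had a peak, whereas ranks of 24849, 11577 and 28007 were found in wild type with T3. Of the other genes, col16a1 was bound in the TRα-/- control and the wild-type T3 intestine, and col14a1 in the wild-type T3 intestine alone. In col14a1 the region was 1862 bp upstream of the gene, and col14a1 was not bound when the gene extent alone was counted.

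The 9 genes of beaded filament, anchoring and network collagens held 1 bound gene (11.1%, against 32.6% at similar extent), col26a1, bound in the TRα-/- control alone. Its region had a peak in 9 libraries, 2 of 3 in each of the other conditions, so this call turned on a single library per condition. The collagen VI genes col6a1, col6a2, col6a3 and col6a6, for the microfilaments around cells, had a peak in 4, 4, 9 and 6 libraries. Also in this group, col7a1 was bound when a peak in at least 2 of 3 libraries was enough. It was bound as well with replicate 1, 2 or 3 left out. The 3 transmembrane collagen genes, col13a1, col17a1 and col25a1.2, were not bound, while 42.7% of genes of similar extent were. In col13a1 and col25a1.2 all 12 libraries had a peak, but not at a place shared by the 3 libraries of any condition.

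Of the 8 genes of elastic fibres and matrix glycoproteins, 1, 2, 4 and 1 were bound in TRα-/- T3, TRα-/- control, wild-type T3 and wild-type control intestine, and 4 (50%, against 35.1% at similar extent) in at least 1. The gene of fibulin-7 had 1 region, at 38872781 to 38874153 on chromosome 5, with a peak in all 12 libraries. In fbln7 the ranks were 5944, 3586 and 2067 in TRα-/- with T3, 3741, 1761 and 1872 in TRα-/- without T3, 4653, 2766 and 2470 in wild type with T3 and 5056, 3417 and 3915 in wild type without T3, and all groups overlapped. fbln5, whose product is needed for elastic fibre assembly in mice, and fbn2, for the microfibril protein fibrillin-2, were bound in wild type with T3 alone, and fbln5 was bound in no condition without replicate 3. fn1, whose product fibronectin is a ligand of many integrins, had peaks in 0, 2, 3 and 2 of 3 libraries in the same order of conditions and was not bound.

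The region of fbln2, the gene of fibulin-2, is named here because of its values. It lies 4395 bp upstream of the gene, at 118215178 to 118216196 on chromosome 4. Ranks were 14494 and 15220 in TRα-/- T3 replicates 1 and 3, with no peak in replicate 2, and 3573, 6962 and 5618 in the TRα-/- control libraries. In wild type they were 4716, 4880 and 6974 with T3, and 9741 and 12151 in control replicates 2 and 3, with no peak in replicate 1. The T3 libraries ranked it worse than the control libraries in TRα-/- and better in wild type, without overlap in either genotype. The fold enrichments were 3.33 and 4.09 in TRα-/- with T3, 5.91, 5.86 and 6.39 in TRα-/- without T3, 7.74, 9.78 and 8.19 in wild type with T3 and 5.79 and 6.16 in wild type without T3, and they separated the same groups in the same directions. Since fold enrichment and rank come from the same fragments, the one is no separate check of the other. Pileups were 3 to 18 fragments, so each value rests on few fragments, and fbln2 was not bound in any condition when the gene extent alone was counted.

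**Figure D4:**
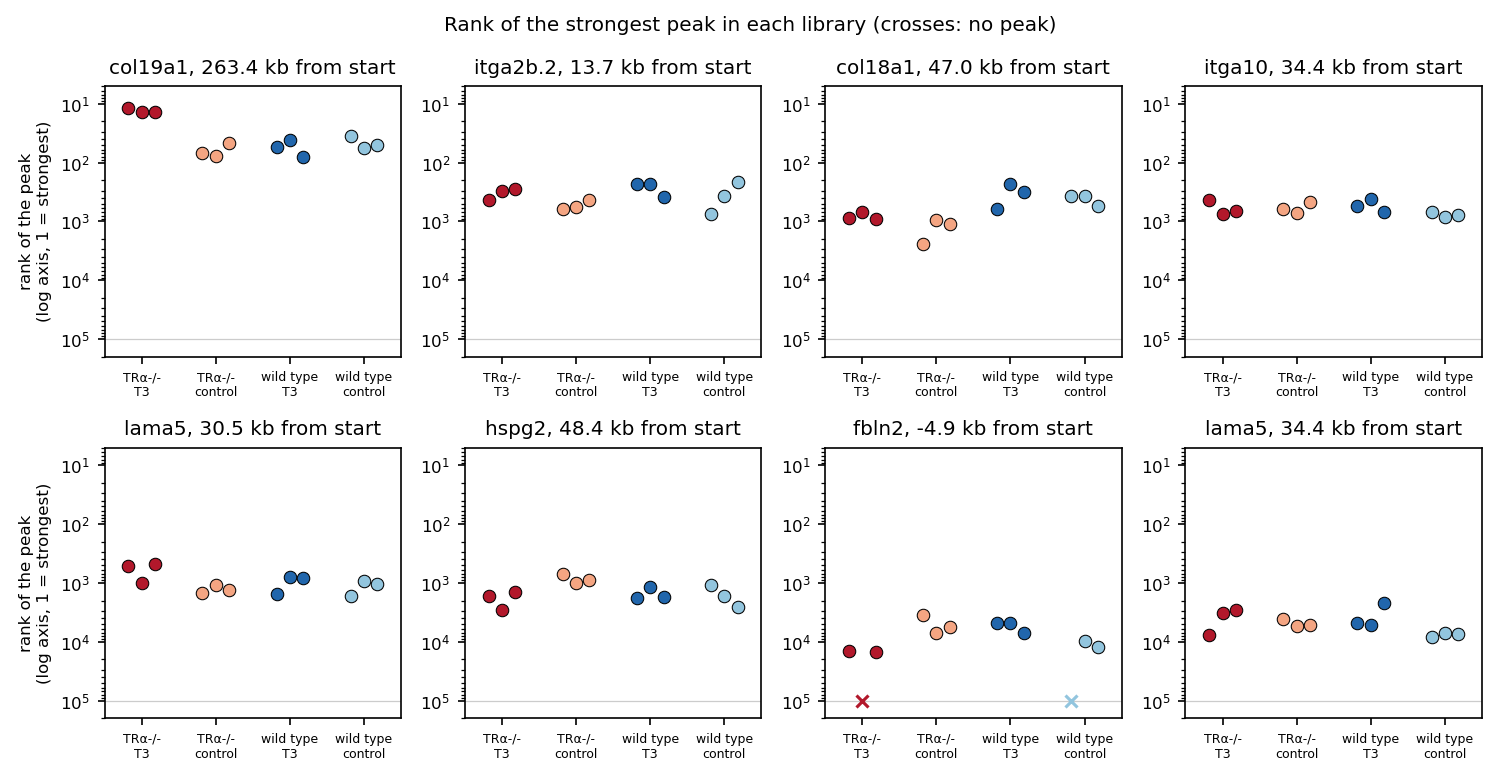
Rank of the strongest peak (log axis, strong peaks at the top) in the 3 libraries of each condition for 8 regions, with crosses for libraries without a peak; the title gives the distance of the region's centre from the gene's start. The 3 points of col19a1 in TRα-/- with T3 (12, 14 and 14) stand above its other 9. The points of itga10 overlap throughout in rank, though not as shares of each list. Those of fbln2 are low in TRα-/- with T3 and high in TRα-/- without T3.

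Integrin α genes were bound in 4, 4, 6 and 5 of 13 cases in TRα-/- T3, TRα-/- control, wild-type T3 and wild-type control intestine. Genes of similar extent would give 2.02, 2.43, 3.61 and 2.92. In at least 1 condition 6 were bound (46.2%), against 31.5% of genes of similar extent. Of the genes of collagen receptors, itga1, itga2 and itga10 were bound and itga11 was not. On chromosome 8, itga10 held 5 regions in an extent of only 40552 bp. The strongest, at 116947938 to 116948971, ranked 439, 745 and 656 in TRα-/- with T3, 620, 725 and 469 in TRα-/- without T3, 549, 421 and 687 in wild type with T3 and 682, 853 and 773 in wild type without T3. The lowest and the highest of these 12 ranks for itga10, 421 and 853, lay close to each other. The groups overlapped in rank in each comparison. As shares of each list, however, all 3 TRα-/- T3 libraries placed this region further down than any other library did. Fold enrichment at this place ranged between 10.8 and 13.8 over the 12 libraries.

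Close to each other on chromosome 1 lie itga1 and itga2. The itga1 region at 179875340 to 179876424, 864 bp upstream of the gene, was the other region near a start, and it ranked 15328, 14559 and 14897 in TRα-/- with T3, 6360, 10801 and 5491 in TRα-/- without T3, 8303, 9186 and 6574 in wild type with T3 and 4207, 3775 and 10921 in wild type without T3. All 3 TRα-/- T3 libraries lay below every other library at this start. For itga2, the region at 179759483 to 179759761 had a peak in no TRα-/- T3 library and no wild-type control library, in 2 TRα-/- control libraries at 23320 and 7941, and in the 3 wild-type T3 libraries at 21739, 23412 and 15167. The wild-type T3 peaks of this itga2 region had pileups of 4, 6 and 9 fragments and stood 62.2%, 57.3% and 34.0% down their lists.

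The chain that pairs with integrin β3 on platelets, αIIb, has a pair of genes in the lists, itga2b.1 and itga2b.2, which lie close together on chromosome 10. The second was bound in all 4 conditions and the first in none. At 9366773 to 9367920, 13.7 kb from the start of itga2b.2, the ranks were 425, 310 and 283 in TRα-/- with T3, 616, 568 and 433 in TRα-/- without T3, 235, 228 and 389 in wild type with T3 and 756, 376 and 212 in wild type without T3. With T3 the TRα-/- libraries ranked it better than without, with no overlap, and in wild type the ranks with and without T3 overlapped. Taken as shares of each list, the TRα-/- ranks with and without T3 overlapped as well. The gene of its partner, itgb3, lies on the same chromosome and had 1 region, at 8965748 to 8966204. This was without a peak in all 3 TRα-/- T3 libraries, and itgb3 had ranks of 11746, 21559 and 7221 in TRα-/- without T3, 7251, 12723 and 31971 in wild type with T3, and 19884 and 8234 in 2 of the 3 wild-type control libraries.

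The muscle laminin receptor gene itga7 was bound through a region 773 bp past its end, at 133718792 to 133719412 on chromosome 2, with ranks of 4432, 6650 and 3286 in TRα-/- with T3 and 1844, 3017 and 1796 in TRα-/- without T3. Wild-type ranks for itga7 were 11586, 1683 and 6246 with T3 and 3334, 10534 and 2842 without T3, which overlapped, whereas the TRα-/- groups did not. itga8 was bound in wild type with T3 alone, through a region at 21518545 to 21519349 on chromosome 6 with ranks of 17284, 21379 and 12036. No TRα-/- T3 library had a peak in this region, although all 3 had one elsewhere at itga8. itga6, which with β4 forms the laminin receptor of hemidesmosomes, and itga5, for the fibronectin receptor, were not bound and had a peak in 8 and 9 libraries.

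Of the 7 integrin β genes, 2, 2, 3 and 1 were bound in the 4 conditions in the same order, and 3 (42.9%, against 28.4% at similar extent) in at least 1. By condition, similar extent would give 0.971, 1.14, 1.74 and 1.40 genes. The gene of β1, the partner of most α chains, had a peak in 5 libraries and no region. itgb4 was bound in all conditions but the TRα-/- control, and itgb6, for an epithelial chain, in all but the wild-type control. At one of the 3 regions of itgb6, 67803909 to 67804399 on chromosome 9, no TRα-/- T3 library had a peak, and the wild-type T3 ranks were 33188, 12805 and 28553. Dystroglycan, the other main laminin receptor, is encoded by dag1, which had a peak in 4 libraries, 1 of each condition, and was not bound.

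Of the 4 genes matched by name alone, col4a2-as2 and itgb3bp were bound. The transcript col4a2-as2 lies on chromosome 6, while col4a2 lies on chromosome 2, and both of its regions are also within 5 kb of oplah. The one at 135094573 to 135095530 ranked 1470, 2480 and 1667 in TRα-/- with T3, 529, 969 and 4809 in TRα-/- without T3, 1742, 1457 and 2241 in wild type with T3 and 986, 1813 and 1602 in wild type without T3. The groups overlapped in rank for col4a2-as2. As shares of each list, the TRα-/- T3 ranks (8.44%, 9.53% and 5.39%) stood further down than those of wild type with T3 (4.99%, 3.57% and 5.03%). The region cannot be assigned to col4a2-as2 rather than to oplah. itgb3bp, which encodes a centromere protein, was bound in all conditions but the TRα-/- control. All 12 libraries had a peak in its region at 78477703 to 78478802, but the peaks of the 3 TRα-/- control libraries did not join into 1 stretch, so this missing call does not mean missing peaks.

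The ranks at the 62 regions were then compared between conditions as groups of 3 libraries. For T3 against control in TRα-/- intestine, 6 regions ranked better in all 3 T3 libraries than in any control library and 7 ranked worse, where over all regions 5.5% ranked better and 5.97% worse. The better ones were at col18a1, col19a1, hspg2, itga10, itga2b.2 and lama5, and the worse ones at fbln2, hspg2, itga7, itgb3, lama3 and 2 at itga1. Of the better ones, those at col18a1, hspg2, itga2b.2 and lama5 overlapped when ranks were taken as shares of each list. The one at col19a1 stayed apart. The itga10 region meant here lies at 116945236 to 116945746, with ranks of 888 to 17818 over the 12 libraries. Its shares of each list are not given here. Peaks in every T3 and no control library were found at 0 regions (0.614% of all regions), and in every control and no T3 library at 2, those of itgb3 and lama3 (2.12%). Where all 6 libraries had a peak, 6 of 25 regions ranked better and 3 worse with T3, beside 8.70% and 6.48% of all such regions. Without TRα-/- T3 replicate 1, which listed the fewest peaks, 13 regions ranked better with T3 (14.2% of all regions) and 2 had peaks in every T3 and no control library (3.49%).

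For T3 against control in wild type, 8 regions ranked better with T3 (12.6% of all regions) and 0 worse (4.07%). These 8 are 12.9% of the 62, near the share over all regions. They lay at lama5 (2 regions), lamb2, fbln2, fbln5, itga2, col22a1 and col4a2-as2. As shares of each list, at least those at col4a2-as2 and at 1354554 to 1355291 in lama5 overlapped. The region of itga2 named above was found in every T3 and no control library (2.73% of all regions), and 0 regions had the reverse (0.832%). Where all 6 libraries had a peak, 2 of 36 regions ranked better and 0 worse with T3, beside 7.30% and 4.22% of all such regions.

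For TRα-/- against wild type without T3, 6 regions ranked better in TRα-/- (5.74% of all regions) and 1, that of col18a1, worse (9.19%). The 6 were at col16a1, col4a2-as2, fbln2, hspg2, lama3 and lama5. The lama3 region named above was found in every TRα-/- control and no wild-type control library (0.647% of all regions), and 0 regions had the reverse (3.56%). Of the 31 regions with a peak in all 6 libraries, 2 ranked better in TRα-/- and 1 worse, beside 8.56% and 5.93% of all such regions. For TRα-/- against wild type with T3, 3 regions, at col19a1, hspg2 and lama5, ranked better in TRα-/- (3.6% of all regions) and 12 worse (17.6%). At 6 regions every wild-type T3 library but no TRα-/- T3 library had a peak (9.88%), namely at col22a1, col5a3, itga2, itga8, itgb3 and itgb6, and at 0 the reverse (0.145%). When the same number of strongest peaks, 17414, was taken from each library, this count was 0 (5.45% of all regions) and 6 regions ranked worse in TRα-/- (14.3%). Where all 6 libraries had a peak, 3 of 31 regions ranked better in TRα-/- and 4 worse, beside 7.53% and 7.21% of all such regions. Without TRα-/- T3 replicate 1, 7 regions ranked better in TRα-/- (10.9% of all regions) and 2 were found in both other TRα-/- T3 libraries and no wild-type T3 library (1.54%).

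None of these differences passed a test. An exact permutation test of the rank sum, two-sided, cannot give a p below 0.1 with 3 libraries against 3. The smallest adjusted p over the 15152 regions was 0.872 for T3 against control in TRα-/-, 0.601 for T3 against control in wild type, 0.67 for TRα-/- against wild type without T3 and 0.471 with T3 (exact permutation test, Benjamini-Hochberg adjustment), and 0 regions had an unadjusted p under 0.05. The TRα-/- control libraries enter 2 of the comparisons, as do the other groups, so that these share libraries. Leaving out replicate 1, 2 or 3 of every condition moved most of these counts by over 1.5 times, mainly upwards, and the shares over all regions also moved.

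Of the 81 genes, 55 had no region in any condition. All of them had a peak in at least 1 library, with a median of 9 of 12, and 47 had one in at least 6 libraries. Genes enter the lists only when a peak names them. In single libraries 31.1% to 72.1% of all genes had a peak, and 49.4% to 92.6% of the 81. The counts of libraries were not set beside genes of similar extent. In 7 of these genes, col13a1, col25a1.2, col27a1, col4a6, col7a1, itgb7 and lama2, every library had a peak, but never at one place in all 3 libraries of a condition. The 3 longest were lama2, of a laminin of muscle and nerve (348728 bp), col25a1.2 (248188 bp) and itga9 (201580 bp, with a peak in 11 libraries). The median extent was 68826.5 bp in the 26 bound genes and 60402 bp in the 55 without a region.

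**Figure D5:**
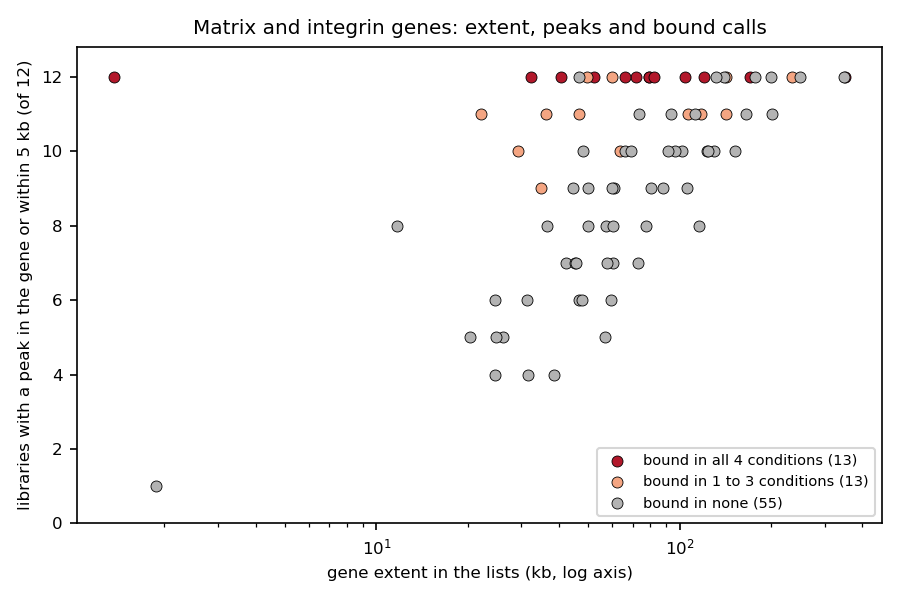
Extent of each of the 81 genes in the lists (kb, log axis) against the number of libraries (of 12) that had a peak at it, flanks of 5 kb included, with colours for genes bound in all 4 conditions (13), in 1 to 3 (13) and in none (55). Genes without a region run from 1 to 12 libraries with a peak, and the 13 bound in all conditions have a peak in all 12 by definition.

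The number of regions per gene was uneven. Among the 26 bound genes, 13 had 1 region, 6 had 2, 2 had 3, and 5 (hspg2, col22a1, lama5, itga10 and col5a3) had 5 or more. These 5 are 6.17% of the 81 genes, against 1.67% of all genes and 6.02% of genes of similar extent.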

How the data were processed

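TR ChIP-Seq covered tadpole intestine in 4 conditions, each with 1 ChIP DNA sample and 3 technical replicates. Per the labels, the authors used Bowtie2 2.3.4.1 and MACS2 2.1.1.20160309, on the Xenbase v9.1 assembly, and called peaks for each library without an input. The deposited lists give, per peak, the position, the width in bp, the pileup as a signal in fragments not scaled to depth, the authors' fold enrichment as a ratio to local background, and the −log10 p-value and −log10 q-value, with the nearest annotated features. Lines were reduced to 1 per peak. No 2 libraries were identical.

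Peaks of 1 condition that shared 1 bp or more were merged, and merged stretches with peaks from all 3 libraries were used as regions. The regions of the 4 conditions were then joined into 1 set. A gene's extent is the span of all features that the lists name for it. It came from a full gene feature for 71 of the 81 genes and 69.3% of all genes, and the rest may fall short of the true gene. Genes of similar extent are the other genes of the same of 20 bins by extent. In the longest bin, which starts at 118689 bp, the 18 members had a median of 158526 bp, against 169945 bp for the others. Regions were assigned to every gene within 5 kb, and a library without a peak took the worst rank. Ranks were compared by an exact permutation test of the rank sum (two-sided), adjusted over all regions.

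Members, groups by role and lists were chosen with earlier results of these data known. Named are members bound in all 4 conditions, the 10 member regions with the best median rank, members with a peak in all 3 libraries of one condition and none of another, members with a region within 1 kb of their start, and the 3 longest unbound members. Other genes were named after their values were seen, to complete a count or a group. The reference gene table, on UCB_Xtro_10.0, lists 80 of the 81 gene IDs and served for names alone. It holds 9 further symbols that fit the rule and are not named in the lists used here, among them col1a2, col5a1, col15a1 and itgb5. Promoter motifs were not analysed here.

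Alternatives were a stricter q (−log10 q of 5 or more), equal numbers of the strongest peaks per library, a peak in at least 2 of 3 libraries, a 50% overlap, the replicate block, gene extents alone, 10 extent bins, members with a full gene feature, and each replicate left out. Seeing the data prompted 2 more, TRα-/- T3 replicate 1, which had the fewest peaks, and leaving out the 4 genes matched by name. The joining and ranking steps were tested on simulated data. Python 3.11.15, numpy 2.4.6, pandas 2.3.3 and scipy 1.17.1 were used.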

Additional observations from a re-analysis of the deposited data

Results flagged for a closer look

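The region 4395 bp upstream of fbln2, at 118215178 to 118216196 on chromosome 4 with a peak in 10 of the 12 libraries, moved in opposite directions with T3 in the genotypes. In TRα-/- intestine all 3 T3 libraries ranked it worse than all 3 control libraries, and in wild-type intestine all 3 T3 libraries ranked it better. The difference between the genotypes was not tested. It was found among 62 regions and rests on pileups of 3 to 18 fragments.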

How the results depend on the processing

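With a −log10 q of at least 5, bound genes numbered 8 in TRα-/- T3, 11 in TRα-/- control, 15 in wild-type T3 and 11 in wild-type control intestine. A 50% overlap gave 10 in TRα-/- T3, and a peak in at least 2 of 3 libraries gave 29 in wild-type control. With each replicate left out in turn the counts ranged between 16 and 21, 20 and 23, 24 and 32, and 19 and 27 in the same order, beside 12.83% to 15.9%, 16.6% to 18.9%, 23.5% to 28.1% and 17.8% to 25.3% of all genes. For T3 against control in TRα-/-, regions with a peak in no T3 and all control libraries numbered 1 at the stricter q (1.38% of all regions) and 1 with equal numbers of peaks (1.47%), and those ranked worse numbered 3 at the stricter q (5.61%). For T3 against control in wild type, regions with a peak in all T3 and no control library numbered 2 at the stricter q (4.07%), and those ranked better 5 with equal numbers of peaks (11.5%). For TRα-/- against wild type without T3, regions found in every TRα-/- but no wild-type library numbered 0 under both (0.315% and 1.08%). With T3, regions without any TRα-/- peak numbered 0 (5.45%), and those ranked worse 6 (14.3%), with equal numbers of peaks. The causes were not tested, apart from the fewer peaks or libraries that an alternative leaves.

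Leaving out a replicate leaves 2 libraries against 2, so that more regions separate by construction. The lowest and highest counts were, for T3 against control in TRα-/-, 9 and 17 better (12.4% to 13.04% of all regions), 11 and 20 worse (14.6% to 16.8%), 1 and 5 in all against none (2.91% to 3.34%), and 4 and 10 in none against all (7.04% to 9.49%). For T3 against control in wild type they were 21 and 25 (26.1% to 29.2%), 6 and 22 (12.1% to 16.7%), 4 and 10 (8.25% to 12.1%), and 3 and 9 (4.15% to 6.12%). For TRα-/- against wild type without T3 they were 14 and 17 (12.9% to 16.7%), 8 and 23 (18.5% to 25.5%), 2 and 5 (3.18% to 6.23%), and 3 and 9 (8.98% to 13.7%). With T3 they were 4 and 10 (9.55% to 9.69%), 23 and 29 (30.2% to 32.7%), 0 and 2 (1.07% to 1.35%), and 13 and 19 (18.5% to 21.5%). Without TRα-/- T3 replicate 1 alone, T3 against control in TRα-/- gave 13 regions better (14.2%) and 2 in all against none (3.49%), and TRα-/- against wild type with T3 gave 7 better (10.9%) and 2 in all against none (1.54%).

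The replicate numbers name technical replicates, and no label pairs same-numbered libraries. They do share a trait, since replicate 1 had the lowest implied background in every condition. Leaving out replicate 1 thus removes the library with the lowest background of each condition. Deviations of same-numbered libraries correlated at −0.00470 to 0.112 (18 pairs, 3934 regions), and 1 pair was over 0.1. For replicate 1 the values were 0.0548 to 0.112, the highest of the 3 replicates for every pair of conditions. With the replicate number as a block, a region counted when all 3 same-numbered pairs moved one way. This gave 13 worse for T3 in TRα-/- (11.2% of all regions), 19 better (23.2%) and 2 worse (8.61%) for T3 in wild type, and 13 better (11.1%) and 7 worse (15.7%) for TRα-/- against wild type without T3. Single genes changed the number of conditions in which they were bound most often at the stricter q (17 of 26), and lama5, hspg2, col18a1, col19a1, col22a1, itga10 and itga2b.2 were bound in all 4 under every alternative run on single genes. The lists give no read totals, and what depth limits was not tested.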

Other observations

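Genes that process or bind the matrix but lie outside the rule were listed beside it, 57 symbols for collagen crosslinking and processing enzymes, small proteoglycans, and the adhesion proteins that link integrins to the cytoskeleton. Of the 46 named in the lists, 4, 5, 11 and 11 were bound in TRα-/- T3, TRα-/- control, wild-type T3 and wild-type control intestine. Over all genes the shares bound were 11.5%, 13.5%, 21.2% and 16%, not matched for extent. In at least 1 condition 14 were bound (30.4%), against 31.5% of genes of similar extent. Bound in all 4 conditions were 3 of the 46, beside 8.52% of all genes. They were ptk2, which encodes focal adhesion kinase (9 regions), pxdn, which encodes the enzyme that crosslinks collagen IV (3 regions), and sdc4, a cell surface proteoglycan gene (2 regions).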
